A study of Homo sapiens with 24 samples.

Results

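NF-kB is a family of dimeric transcription factors, and the 10 genes described here encode its subunits (NFKB1, NFKB2, REL, RELA, RELB), inhibitors and cofactors of the IkB family (NFKBIA, NFKBIE, NFKBIZ), and the feedback regulators TNFAIP3 and BIRC3. They were taken by gene name from the 57820 genes counted in each RNA-seq library of Cal33 and SAS, established HNSCC (squamous cell carcinoma of the head and neck) lines from the tongue. All 10 were found once, and all 10 passed the filter on low counts. Each line was studied as GSK-J1 plus 4 Gy (4.5 µM of the inhibitor and a single x-ray dose), 4 Gy alone, GSK-J1 alone at 4.5 µM, and sham, with 3 replicates per group, 24 libraries in all, and RNA taken after 24 h. GSK-J1 inhibits the histone demethylases UTX and JMJD3, and the question put to these libraries was how irradiation, the inhibitor and their combination change transcription. All cells were labelled as wild type, and the labels do not say which solvent the sham group received. Each line is the culture of a single tumor, without stroma or immune cells, so differences between the lines are differences between 2 cultures.

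In resting cells, NF-kB dimers are held in the cytoplasm by IkB proteins. Signals from cytokine receptors, pattern recognition receptors or the DNA damage kinase ATM activate the IkB kinases, the inhibitor is degraded, and the dimers enter the nucleus and bind kB sites. NFKB1 and RELA, with NFKBIA as inhibitor, belong to the canonical branch, and NFKB2 and RELB to the slower non-canonical branch. Several genes of the system are themselves NF-kB targets: newly made IkB-alpha, the product of NFKBIA, and A20, the product of TNFAIP3, shut the signal down again, which makes their transcripts a common readout of the pathway in epithelial cells. On the hs37d5 build of the files, the subunit genes are NFKB1 on chromosome 4 (103422486 to 103538459, plus strand), NFKB2 on chromosome 10 (104153867 to 104162281, plus strand), REL on chromosome 2 (61108656 to 61158745, plus strand), RELA on chromosome 11 (65421067 to 65430565, minus strand) and RELB on chromosome 19 (45504688 to 45541452, plus strand). The IkB genes are NFKBIA on chromosome 14 (35870717 to 35873955, minus strand), NFKBIE on chromosome 6 (44225903 to 44233500, minus strand) and NFKBIZ on chromosome 3 (101546835 to 101579866, plus strand), and the feedback genes TNFAIP3 on chromosome 6 (138188351 to 138204449, plus strand) and BIRC3 on chromosome 11 (102188215 to 102210134, plus strand).

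Promoter windows were compared for the kB consensus, the 10-base binding pattern of NF-kB dimers that opens with GGG and closes with CC on its forward strand. Windows of 300 bases, from 250 bases before to 50 bases after an annotated start, were found for 8 of the 10 genes in RefSeq (GRCh38.p14), 13 windows in all, and RELB and NFKBIE were not matched. On either strand, 9 of these 13 windows held at least 1 match (69.2%), against 3956 of all 35116 windows (11.3%). By gene, 7 of 8 had a match (87.5%), against 13.3% of 27305 genes. The windows are shown for TNFAIP3 and BIRC3, the feedback genes with the highest fold changes after irradiation, for NFKB2, a subunit gene that rose in SAS, for REL, which holds the pattern but whose transcript was not called in any comparison, and for RELA, which holds none. They are written 5′ to 3′ on the strand of the gene, with the matching bases in capitals.
TNFAIP3, chr6:137867009-137867308, plus strand: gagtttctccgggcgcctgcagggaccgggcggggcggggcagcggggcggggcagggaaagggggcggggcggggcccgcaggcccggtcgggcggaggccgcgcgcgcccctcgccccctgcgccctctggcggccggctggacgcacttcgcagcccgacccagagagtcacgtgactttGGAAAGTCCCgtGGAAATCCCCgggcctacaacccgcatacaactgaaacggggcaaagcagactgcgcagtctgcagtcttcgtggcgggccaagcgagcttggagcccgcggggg
BIRC3, chr11:102317234-102317533, plus strand: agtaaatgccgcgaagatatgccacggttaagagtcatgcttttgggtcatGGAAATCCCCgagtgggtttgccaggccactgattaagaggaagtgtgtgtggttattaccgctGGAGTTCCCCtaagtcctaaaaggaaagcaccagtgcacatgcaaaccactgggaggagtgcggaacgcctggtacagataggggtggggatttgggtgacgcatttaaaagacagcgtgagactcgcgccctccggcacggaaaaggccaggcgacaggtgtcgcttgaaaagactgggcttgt
NFKB2, chr10:102394328-102394627, plus strand: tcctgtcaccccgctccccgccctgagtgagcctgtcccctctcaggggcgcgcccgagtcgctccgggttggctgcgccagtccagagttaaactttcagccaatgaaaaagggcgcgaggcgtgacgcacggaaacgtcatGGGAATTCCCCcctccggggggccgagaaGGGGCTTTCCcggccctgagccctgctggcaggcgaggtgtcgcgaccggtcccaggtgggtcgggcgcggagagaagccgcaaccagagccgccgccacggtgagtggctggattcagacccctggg
REL, chr2:60881324-60881623, plus strand: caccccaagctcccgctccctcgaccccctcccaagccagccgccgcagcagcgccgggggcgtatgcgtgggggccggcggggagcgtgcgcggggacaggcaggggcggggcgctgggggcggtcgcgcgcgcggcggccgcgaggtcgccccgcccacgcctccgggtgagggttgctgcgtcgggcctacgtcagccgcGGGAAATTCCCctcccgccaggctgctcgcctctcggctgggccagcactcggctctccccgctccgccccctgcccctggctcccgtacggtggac
RELA, chr11:65662867-65663166, minus strand: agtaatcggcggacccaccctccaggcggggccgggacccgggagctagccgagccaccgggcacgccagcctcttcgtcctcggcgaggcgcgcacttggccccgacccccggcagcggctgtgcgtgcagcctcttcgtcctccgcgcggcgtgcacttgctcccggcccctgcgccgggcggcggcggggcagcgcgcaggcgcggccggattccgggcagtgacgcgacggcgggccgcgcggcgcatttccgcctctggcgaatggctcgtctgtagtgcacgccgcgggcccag

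In the TNFAIP3 window, both matches lay on the strand opposite to the gene, at -67 to -58 and -55 to -46, counted in bases from the start. The matches of BIRC3 lay farther upstream, at -199 to -190 and -135 to -126. NFKB2 had an overlapping pair at -107 to -97 and a further match at -78 to -69 of the second of its 3 annotated starts, and the third start had another 2 matches. REL had an overlapping pair at -47 to -37. In the windows not printed, NFKB1 had 1 match at -49 to -40 of its first start, NFKBIA 1 at -81 to -72, and NFKBIZ 1 before each of its 2 starts. A match describes letters in the window, and binding was not measured in these libraries.

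**Figure D1:**
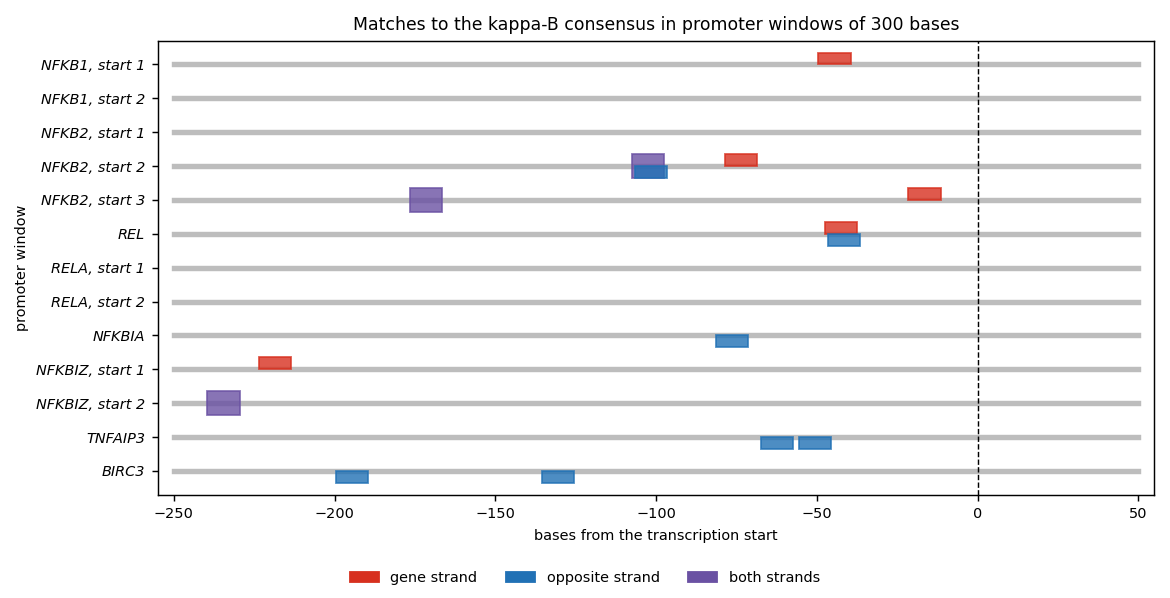
Matches to the kB consensus in the promoter windows of the 8 genes with a RefSeq window. The horizontal axis gives the distance from the annotated start in bases, each line is 1 of the 13 windows, and marks show matches on the gene's strand (above the line), the opposite strand (below the line) or both. Of the 13 windows, 9 hold a match, and neither RELA window does.

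The libraries held 54200036 to 96848227 counts on the strand of the gene, with a median of 76418470.5. The lowest count of any of the 10 genes in any library was 86, for BIRC3. Squamous markers were present throughout (KRT5 at 1117 to 6123 CPM, counts scaled to a common library size by TMM; TP63 at 218 to 424), although KRT6A ranged from 6.64 to 1468 CPM. Defining markers of leukocytes and fibroblasts were near 0 in every library (PTPRC at most 0.120 CPM, CD3E at most 0.0752, LYZ at most 0.0921, DCN at most 0.305), while CD14 (5.19 to 24.2 CPM) and COL1A1 (1.49 to 43.2) were transcribed. Both endothelial markers found, CDH5 (4.75 to 91.2 CPM) and VWF (0.708 to 11.3), were transcribed as well. No marker of these other cell types was called higher in a comparison of irradiated with unirradiated cells, and 2 were called lower, PDGFRB after 4 Gy over sham in Cal33 (log2 fold change -1.44, adjusted p = 0.0473) and CD14 for GSK-J1 plus 4 Gy over sham in SAS (-1.37, 0.0217). The summed leukocyte markers were at 5.48 to 7.48 CPM after 4 Gy and 6.65 to 9.11 in sham in Cal33, and at 6.58 to 11.8 CPM after 4 Gy and 10.6 to 24.5 in sham in SAS. Of the 10 squamous markers, KRT6A was itself called higher after 4 Gy over sham in Cal33 (log2 fold change 1.06) and SAS (2.15), where KRT14 was called higher (0.79) and KRT17 lower (-0.47). KRT17 was also called lower in the other 2 irradiation comparisons of SAS, and the part of these keratins in the results was not tested. Replicate 1 of SAS GSK-J1 and replicate 1 of SAS GSK-J1 plus 4 Gy held transcripts of 14 genes specific to Cal33, at 1.46% and 0.756% of their level there, while the other 10 SAS libraries reached 0.00403% at most, and SAS values are also given without these 2 libraries where the calls or intervals rest on them. Same-numbered replicates deviated together in all groups of SAS and in the irradiated and GSK-J1 groups of Cal33, but not with Cal33 sham. Nothing states that replicates were separate cultures, and the p-values then measure only the spread between these samples. In bulk RNA, fewer cells with a transcript and less of it per cell cannot be told apart.

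Measured per length, as the deposited TPM, NFKBIA was the most abundant of the 10 transcripts in both lines, with a median over 12 libraries of 141 TPM (69.5 to 330.5) in Cal33 and 121 TPM (88.3 to 138) in SAS. In Cal33 the medians then followed the order NFKB2 (76.6 TPM), RELA (60.7), NFKB1 (56.2), NFKBIZ (33.8), TNFAIP3 (32.2), RELB (29.8), NFKBIE (16.5), BIRC3 (6.26) and REL (3.71), and the ranges of every pair of neighbours in this order overlapped. In SAS the order was RELA (92.8 TPM), NFKB2 (54.5), NFKB1 (38.8), RELB (25.5), TNFAIP3 (22.0), NFKBIE (11.8), NFKBIZ (5.26), REL (3.29) and BIRC3 (1.78), and it was the same over the 10 libraries without Cal33 transcripts. Here the ranges separated RELA from NFKB2 and NFKBIE from NFKBIZ, and all other neighbours overlapped. The rare subunit was REL, c-Rel, best known from lymphoid cells, at 2.54 to 4.52 TPM in Cal33 and 2.49 to 3.82 TPM in SAS. The medians pool irradiated and unirradiated libraries of a line and do not give the order within a group. In Cal33, TNFAIP3 had a mean of 83.1 TPM after 4 Gy and of 13.3 TPM in sham, where NFKBIE had 14.3 TPM.

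Irradiation raised TNFAIP3 in both lines, and in SAS another 5 of the 10 transcripts. In SAS, 6 of the 10 genes were called higher after 4 Gy than in sham (NFKB1, NFKB2, RELB, NFKBIE, TNFAIP3 and BIRC3; edgeR's quasi-likelihood test, Benjamini-Hochberg adjusted p under 0.05 over all 23416 genes tested), where 3.63% of all genes were, and none was called lower. Their median log2 fold change over all 10 was 0.50, against -0.02 over all genes. In Cal33, 1 of the 10 was called higher after 4 Gy, TNFAIP3, where 3.47% of all 24351 genes tested were, although all 10 fold changes were positive and their median was 0.83, against 0.01 over all genes. The count of 1 in Cal33 became 3 without GSK-J1 plus 4 Gy replicate 1 and 2 without sham replicate 3, given without the share of all genes in those fits. At an unadjusted p under 0.05, 8 of the 10 passed in Cal33, where 22.4% of all genes did. The libraries of 7 genes did not overlap between 4 Gy and sham in Cal33 (NFKB1, NFKB2, RELA, RELB, NFKBIE, NFKBIZ and TNFAIP3), a separation upwards that 13% of all genes showed. In SAS it was 7 genes as well, the 6 called and RELA, where 13.1% of all genes separated upwards.

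With the inhibitor present, GSK-J1 plus 4 Gy against sham, which shares its sham libraries with the comparison above, gave 6 called higher in SAS, again NFKB1, NFKB2, RELB, NFKBIE, TNFAIP3 and BIRC3, with 3.87% of all genes called higher, and 1 in Cal33, TNFAIP3, with 2.91%. GSK-J1 plus 4 Gy against GSK-J1 compares irradiated with unirradiated cells under the inhibitor. It shares no library with 4 Gy against sham, but the 2 are not independent. Both come from the same fit, and same-numbered replicates deviated together outside Cal33 sham. GSK-J1 plus 4 Gy against GSK-J1 gave 5 in SAS (NFKB2, RELB, NFKBIE, TNFAIP3 and BIRC3), with 2.43% of all genes called higher, and 1 in Cal33, again TNFAIP3, with 3.04%. Groups did not overlap, with all irradiated libraries higher, for 6 genes in each SAS comparison, against 13.5% of genes for GSK-J1 plus 4 Gy over sham and 14.2% over GSK-J1. In Cal33 they did not overlap for 7 genes over sham, where 10.8% of genes separated, and for 5 genes over GSK-J1, where 12.5% did. Where replicate numbers pair the samples, a fit with the number as a block called 8 of 10 genes for SAS 4 Gy over sham (11.3% of all genes) and for SAS GSK-J1 plus 4 Gy over GSK-J1 (10.4%), and 7 of 10 for Cal33 GSK-J1 plus 4 Gy over GSK-J1 (5.04%). Without the 2 SAS libraries that hold Cal33 transcripts, the same 6 genes were called after 4 Gy over sham (2.92% of all genes), but only NFKB2, RELB and TNFAIP3 for GSK-J1 plus 4 Gy over sham (2.23%), and these and BIRC3 over GSK-J1 (0.286%). Leaving out GSK-J1 plus 4 Gy replicate 3 also left 3 calls over sham in SAS. In Cal33, the count over sham became 0 without sham replicate 1, 2 without sham replicate 3, 3 without 4 Gy replicate 1 and 4 without GSK-J1 plus 4 Gy replicate 2. The Cal33 count over GSK-J1 became 0 without GSK-J1 replicate 2 or 3, 2 without sham replicate 2 or 3, and 4 without 4 Gy replicate 1 or GSK-J1 plus 4 Gy replicate 2. The share of all genes called without single libraries is not given here, so these counts do not tell the 10 genes from genes in general.

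**Figure D2:**
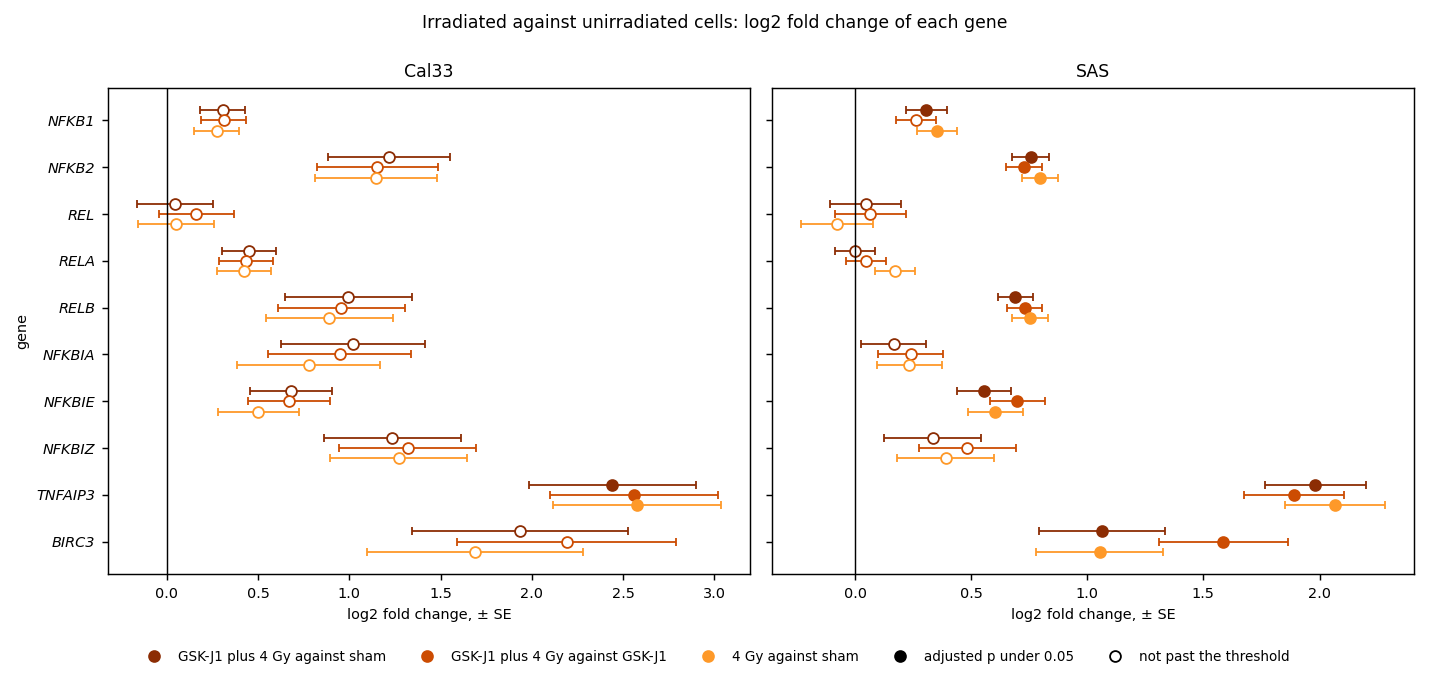
Log2 fold changes of the 10 genes in the 3 comparisons of irradiated with unirradiated cells, in Cal33 and in SAS. Points are edgeR estimates, bars are 1 standard error, and filled points passed an adjusted p of 0.05. TNFAIP3 has the highest value in every comparison, at 1.89 to 2.58, REL lies near 0, and the standard errors are wider in Cal33 than in SAS.

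TNFAIP3 encodes A20, a ubiquitin-editing enzyme that stops signalling to the IkB kinases. In Cal33, it had 207, 78.4 and 83.9 CPM in replicates 1, 2 and 3 after 4 Gy, against 22.0, 13.4 and 27.0 CPM in sham. The log2 fold change was 2.58 ± 0.46 (SE, adjusted p = 0.00864), and every irradiated library was above every sham library. With GSK-J1, the libraries had 188, 66.4 and 78.5 CPM after 4 Gy, against 25.4, 19.1 and 13.1 CPM with GSK-J1 alone, a log2 fold change of 2.56 ± 0.46 (SE, adjusted p = 0.00984). Replicate 1 of both irradiated groups was more than 2 times the other replicates. Without it, the log2 fold change after 4 Gy over sham was 1.99 (adjusted p = 0.0249), and that of GSK-J1 plus 4 Gy 1.82 over sham (0.0383) and 1.94 over GSK-J1 (0.0277). The 4 Gy call in Cal33 held without each of the 12 libraries in turn, whereas GSK-J1 plus 4 Gy lost its call over sham without sham replicate 1 (adjusted p = 0.0664) and over GSK-J1 without GSK-J1 replicate 2 or 3 (0.0508 to 0.0578).

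In SAS, TNFAIP3 rose as well, with a smaller spread between replicates. It had 54.5, 59.2 and 54.2 CPM after 4 Gy, against 16.1, 9.19 and 14.7 CPM in sham, a log2 fold change of 2.07 ± 0.22 (SE, adjusted p = 0.000308). With GSK-J1, it had 49.3, 55.4 and 54.2 CPM after 4 Gy, against 15.9, 9.54 and 17.3 CPM without irradiation, a log2 fold change of 1.89 ± 0.22 (SE, adjusted p = 0.000728). The coefficient of variation among replicates after GSK-J1 plus 4 Gy was 6.16% in SAS, and 60.5% in Cal33. The 3 calls of TNFAIP3 in SAS held under all 24 alternatives each, leaving out of single libraries included. The antisense RNA RP11-356I2.4 overlaps TNFAIP3, and its own counts also rose after 4 Gy (log2 fold change 3.07 ± 0.48 SE, adjusted p = 0.00489 in Cal33, and 2.19 ± 0.36 SE, adjusted p = 0.00419 in SAS). Counting used strand, and the antisense RNA had at most 3.76 CPM in Cal33, where TNFAIP3 reached 207 CPM.

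BIRC3 encodes cIAP2, a ubiquitin ligase of the TNF receptor complex that inhibits cell death, and is itself a target of NF-kB. In SAS it was rare, with 5.41, 6.50 and 4.99 CPM after 4 Gy, against 3.65, 2.49 and 2.01 CPM in sham, a log2 fold change of 1.05 ± 0.27 (SE, adjusted p = 0.0374). With GSK-J1, it had 6.02, 6.41 and 4.62 CPM after 4 Gy, against 2.59, 1.94 and 1.15 CPM without irradiation, a log2 fold change of 1.59 ± 0.28 (SE, adjusted p = 0.00857). The groups of each comparison did not overlap, yet the call over sham hung on single libraries. Without SAS 4 Gy replicate 1, 2 or 3, sham replicate 2 or 3, GSK-J1 plus 4 Gy replicate 1 or 2, or GSK-J1 replicate 2, the adjusted p for 4 Gy lay between 0.05 and 0.119. The combination lost its call over sham without GSK-J1 plus 4 Gy replicate 1, 2 or 3 or sham replicate 2 or 3 (0.0540 to 0.113), while the call over GSK-J1 held without each library. In Cal33, BIRC3 had 39.6, 21.4 and 13.7 CPM after 4 Gy, against 5.36, 3.29 and 14.7 CPM in sham, where replicate 3 was far above the other 2. The groups overlapped and the difference was not called (log2 fold change 1.69 ± 0.59 SE, adjusted p = 0.110). With GSK-J1, Cal33 had 47.8, 25.4 and 14.8 CPM after 4 Gy, against 10.7, 5.63 and 3.34 CPM without irradiation, with no overlap (log2 fold change 2.19 ± 0.60 SE, adjusted p = 0.0539), which was called with the replicate block (2.19, adjusted p = 0.0268) and by DESeq2 (2.19, adjusted p = 0.0267).

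**Figure D3:**
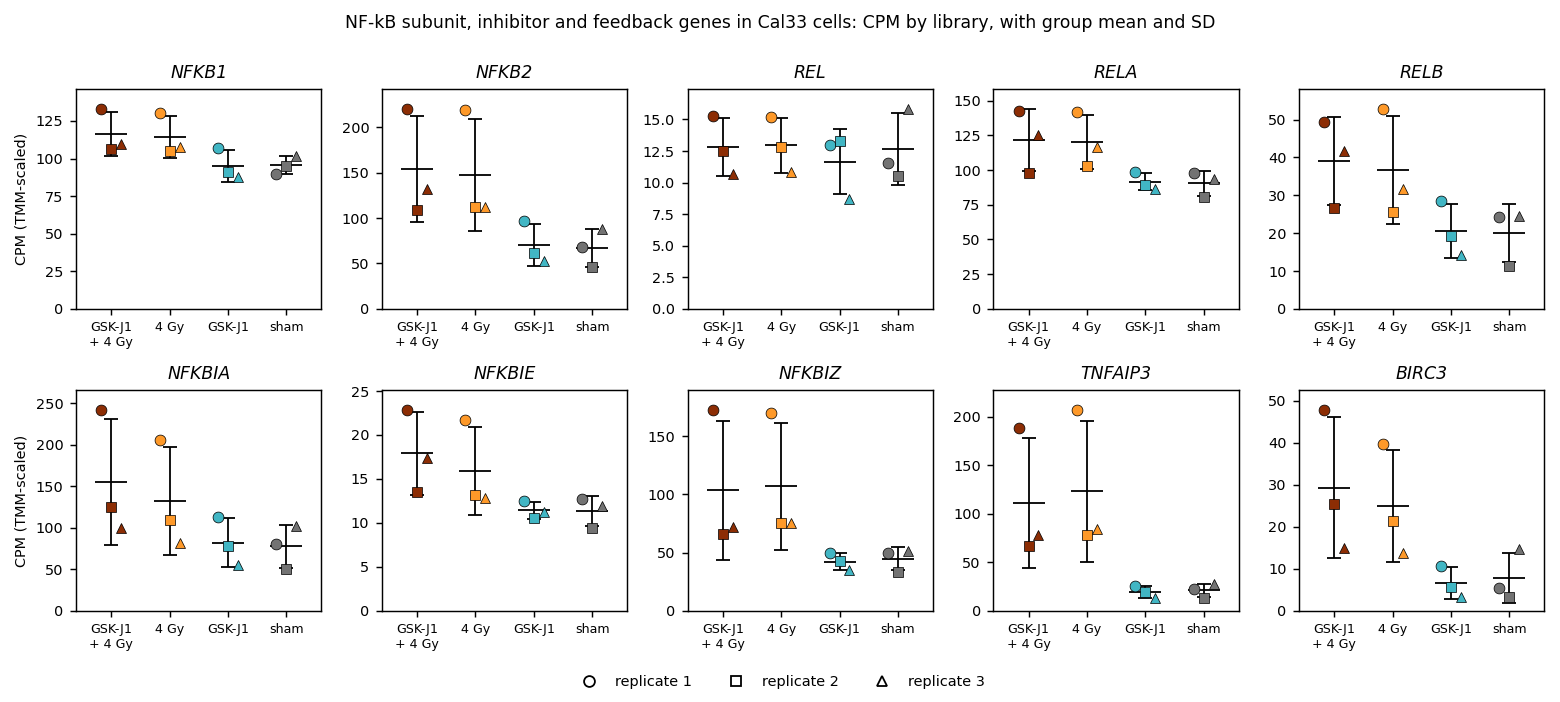
CPM of the 10 genes in each of the 12 Cal33 libraries, by group, on a linear axis from 0. Points are libraries, with a marker for each replicate number, and bars are group means with 1 SD. In both irradiated groups, replicate 1 is the highest point of its group for every gene.

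Among the subunits, both genes of the non-canonical branch rose in SAS. NFKB2 encodes the precursor p100, which is cut to p52 and also acts as an inhibitor. It had 94.97, 94.2 and 96.7 CPM after 4 Gy, against 54.0, 51.7 and 58.5 CPM in sham (log2 fold change 0.80 ± 0.08 SE, adjusted p = 0.000262). With GSK-J1 it had 91.2, 89.6 and 97.9 CPM after 4 Gy, against 53.7, 53.0 and 61.1 CPM without irradiation (log2 fold change 0.73 ± 0.08 SE, adjusted p = 0.000570). RELB, the usual partner of p52, had 30.7, 32.0 and 29.5 CPM after 4 Gy, against 17.9, 18.8 and 17.8 CPM in sham (log2 fold change 0.75 ± 0.08 SE, adjusted p = 0.000273). With GSK-J1 it had 28.2, 30.1 and 30.1 CPM after 4 Gy, against 18.7, 17.7 and 16.8 CPM without irradiation (log2 fold change 0.73 ± 0.08 SE, adjusted p = 0.000483). The groups of both genes were apart in each comparison, and no alternative took away any of their 6 calls in SAS.

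In Cal33, NFKB2 and RELB were higher on average after irradiation, but their replicates were spread and neither passed by edgeR without the block. DESeq2 did not call RELB, but it called NFKB2 for 4 Gy over sham (adjusted p = 0.0116). It also called NFKB2 for the combination over sham (0.00821) and over GSK-J1 (0.0132). NFKB2 had 219, 112 and 112 CPM after 4 Gy, against 68.3, 45.8 and 87.9 CPM in sham (log2 fold change 1.15 ± 0.33 SE, adjusted p = 0.0608). RELB had 52.9, 25.5 and 31.6 CPM after 4 Gy, against 24.2, 11.2 and 24.5 CPM in sham (log2 fold change 0.89 ± 0.35 SE, adjusted p = 0.149). Every irradiated library of both genes was above every sham library. With GSK-J1, NFKB2 had 220.5, 109 and 132 CPM after 4 Gy, against 96.5, 62.0 and 52.7 CPM without irradiation, and RELB had 49.3, 26.6 and 41.6 CPM, against 28.4, 19.1 and 14.1 CPM. Here the RELB groups overlapped, since irradiated replicate 2 lay below unirradiated replicate 1. With the replicate block, the differences under GSK-J1 passed for NFKB2 (1.12, adjusted p = 0.00949, against 0.0670 without it) and for RELB (0.93, adjusted p = 0.0220, against 0.132).

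NFKB1 encodes p105, the precursor of p50, which pairs with RELA in the canonical dimer. Its changes were small. In SAS, NFKB1 had 77.7, 84.1 and 85.2 CPM after 4 Gy, against 65.3, 59.0 and 68.6 CPM in sham, without overlap (log2 fold change 0.35 ± 0.09 SE, adjusted p = 0.0299). The combination gave a log2 fold change of 0.31 ± 0.09 (SE, adjusted p = 0.0473) over sham and of 0.26 ± 0.09 (SE, adjusted p = 0.105) over GSK-J1, the last of which passed with the replicate block (adjusted p = 0.00582). The calls over sham were near the threshold. For 4 Gy the adjusted p was 0.0507 to 0.110 without 4 Gy replicate 1, 2 or 3 or sham replicate 1 or 2, and for the combination 0.0556 to 0.183 without any 1 library other than GSK-J1 replicate 3 or sham replicate 3. In Cal33, NFKB1 had 131, 105 and 107 CPM after 4 Gy, against 89.6, 95.3 and 102 CPM in sham, a log2 fold change of 0.27 ± 0.12 (SE, adjusted p = 0.211).

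RELA encodes p65, the transactivating subunit of the canonical dimer. In Cal33 it had 142, 103 and 116 CPM after 4 Gy, against 97.8, 80.3 and 93.4 CPM in sham, apart but not called (log2 fold change 0.42 ± 0.15 SE, adjusted p = 0.111). In SAS it had 170.4, 169 and 169 CPM after 4 Gy, against 143, 152 and 154 CPM in sham, a log2 fold change of 0.17 ± 0.09 (SE, adjusted p = 0.247). REL stayed between 8.70 and 15.9 CPM in all 12 Cal33 libraries and between 8.57 and 13.4 CPM in all 12 SAS libraries. Its log2 fold change after 4 Gy was 0.05 in Cal33 (95% interval -0.40 to 0.50) and -0.08 in SAS (95% interval -0.41 to 0.26), and its groups overlapped in every comparison within a line.

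**Figure D4:**
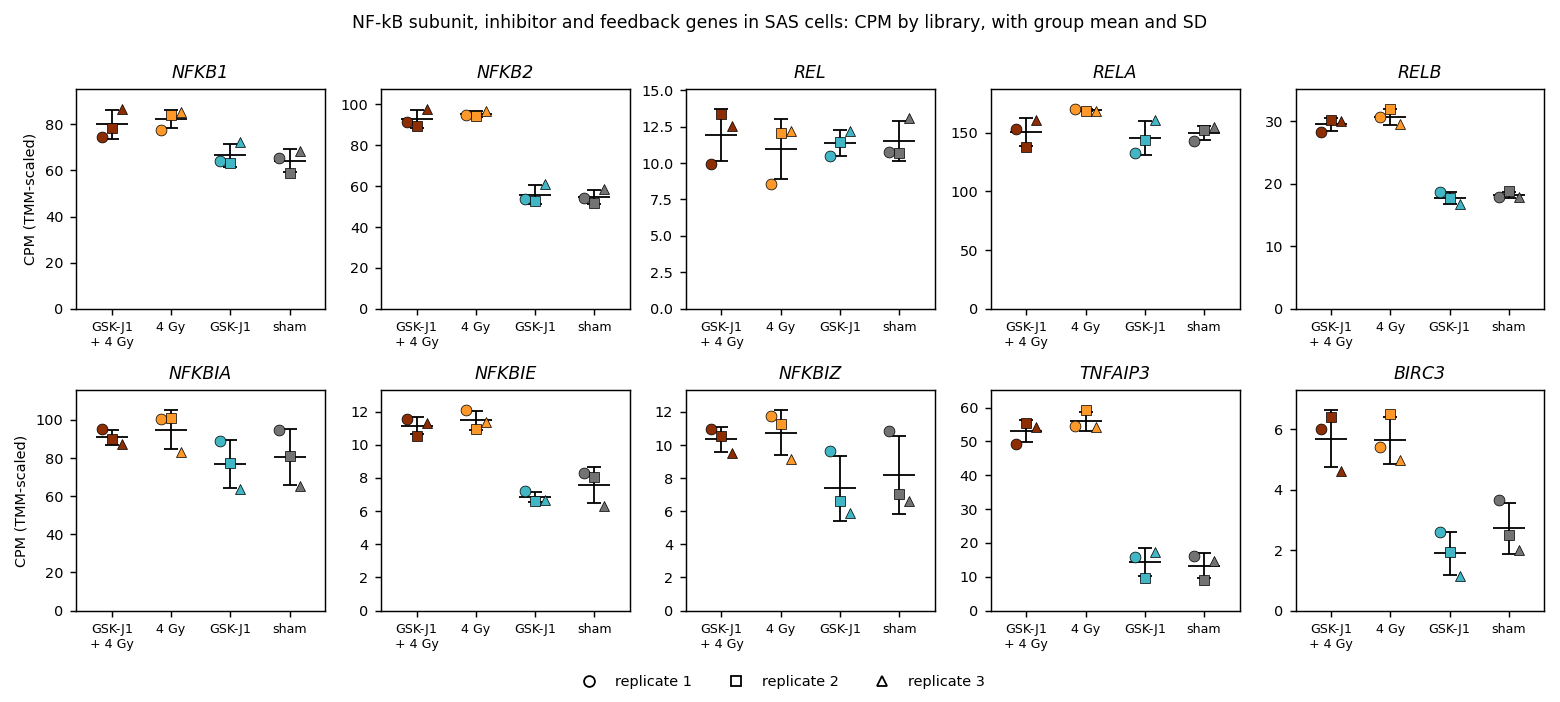
CPM of the 10 genes in each of the 12 SAS libraries, by group, on a linear axis from 0. Points are libraries, with a marker for each replicate number, and bars are group means with 1 SD. NFKB2, RELB, NFKBIE, TNFAIP3 and BIRC3 form a high pair of irradiated groups and a low pair of unirradiated groups without overlap. NFKB1 does so by a narrow margin (lowest irradiated library 74.6 CPM, highest unirradiated library 72.4 CPM).

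Of the 3 IkB genes, NFKBIE was the 1 called after irradiation by edgeR without the replicate block, in SAS. It encodes IkB-epsilon, a cytoplasmic inhibitor that acts with a delay. In SAS, NFKBIE had 12.1, 10.9 and 11.4 CPM after 4 Gy, against 8.28, 8.07 and 6.30 CPM in sham (log2 fold change 0.60 ± 0.12 SE, adjusted p = 0.00989). With GSK-J1, it had 11.5, 10.6 and 11.3 CPM after 4 Gy, against 7.19, 6.63 and 6.70 CPM without irradiation (log2 fold change 0.70 ± 0.12 SE, adjusted p = 0.00698). The groups were apart in both. Without the 2 SAS libraries that hold Cal33 transcripts, the last value was 0.71, with an adjusted p of 0.0748. Over sham, the combination gave 0.56 ± 0.12 (SE, adjusted p = 0.0137), and its call was lost without GSK-J1 plus 4 Gy replicate 3 (adjusted p = 0.0559). In Cal33, NFKBIE had 21.7, 13.2 and 12.9 CPM after 4 Gy, against 12.7, 9.44 and 11.9 CPM in sham (log2 fold change 0.50 ± 0.22 SE, adjusted p = 0.206). With GSK-J1, it had 22.8, 13.5 and 17.4 CPM after 4 Gy, against 12.5, 10.5 and 11.2 CPM without irradiation. For the combination in Cal33, DESeq2 called NFKBIE over sham (0.68, adjusted p = 0.0477) and over GSK-J1 (0.68, adjusted p = 0.0479).

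NFKBIA encodes IkB-alpha, the main and fastest inhibitor of the canonical dimer. In Cal33, NFKBIA had 206, 109 and 81.5 CPM after 4 Gy, against 80.7, 50.6 and 102 CPM in sham, with overlap (log2 fold change 0.78 ± 0.39 SE, adjusted p = 0.263). In SAS, it had 100.4, 101 and 83.0 CPM after 4 Gy, against 94.8, 81.3 and 65.5 CPM in sham, again with overlap (log2 fold change 0.23 ± 0.14 SE, adjusted p = 0.340). In SAS each irradiated library was above the sham library of its own number, and the fit with the replicate block gave 0.24 with an adjusted p of 0.0240. NFKBIZ encodes IkB-zeta, a nuclear cofactor that promotes transcription of secondary response genes and, unlike the other 2, is not a cytoplasmic brake. In Cal33, NFKBIZ had 170.4, 75.2 and 75.1 CPM after 4 Gy, against 49.4, 33.5 and 51.1 CPM in sham, without overlap and short of the threshold by edgeR (log2 fold change 1.27 ± 0.38 SE, adjusted p = 0.0637). With GSK-J1, Cal33 had 172, 66.0 and 71.9 CPM after 4 Gy, against 49.4, 42.4 and 34.6 CPM without irradiation. DESeq2 called NFKBIZ in Cal33 for 4 Gy over sham (adjusted p = 0.0106) and for the combination over sham (0.0168) and over GSK-J1 (0.00882). In SAS, it had 11.8, 11.2 and 9.18 CPM after 4 Gy, against 10.9, 7.02 and 6.64 CPM in sham, with overlap (log2 fold change 0.39 ± 0.21 SE, adjusted p = 0.283, and 0.41 with an adjusted p of 0.0166 with the block). With GSK-J1, the block also brought NFKBIA (adjusted p = 0.0209) and NFKBIZ (0.00529) of SAS past the threshold for GSK-J1 plus 4 Gy over GSK-J1, and NFKBIZ over sham (0.0269). The gene NXPE3 overlaps NFKBIZ on the same strand and was not called in any comparison within a line.

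GSK-J1 was not found to change the system, with or without irradiation, by the fit without a replicate block. None of the 10 genes was called for GSK-J1 against sham or for GSK-J1 plus 4 Gy against 4 Gy in either line by edgeR, where 0% of all genes were called, and none passed an unadjusted p of 0.05. Over all genes, an unadjusted p under 0.05 was found for 215 (GSK-J1 against sham) and 244 (GSK-J1 plus 4 Gy against 4 Gy) genes in Cal33, and for 486 and 438 genes in SAS. With the replicate block over the 12 libraries of a line, these counts were 202 and 232 in Cal33, and 1341 and 1613 in SAS. In SAS the fit without the block thus found fewer genes than the fit with it. In both lines its counts were below a share of 0.05 of the genes tested, the share that p-values without any effect would give. Its lack of calls therefore does not show a lack of effect in either line, and the cause of the low counts was not tested. For SAS GSK-J1 against sham, DESeq2 called 3 genes and the fit with the replicate block 10 (0.0427% of all genes), none of them among the 10 described, and both called 0 in the other comparisons of this kind. In Cal33, the log2 fold changes of GSK-J1 over sham lay between -0.26 (BIRC3) and 0.07 (NFKBIA), and those of GSK-J1 plus 4 Gy over 4 Gy between -0.13 (TNFAIP3) and 0.25 (BIRC3). In SAS, they lay between -0.52 (BIRC3) and 0.09 (TNFAIP3) over sham, and between -0.17 (RELA) and 0.12 (REL) over 4 Gy.

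The intervals in this paragraph come from the fit without a replicate block unless stated, and show how much that fit could have missed. In SAS, the 95% interval of the GSK-J1 effect was -0.14 to 0.20 for NFKB2, -0.21 to 0.13 for RELB and -0.36 to 0.55 for TNFAIP3 on the log2 scale. In Cal33, it was -0.65 to 0.78 for NFKB2, -1.07 to 0.83 for TNFAIP3 and -1.51 to 1.00 for BIRC3. Without the 2 SAS libraries that hold Cal33 transcripts, the interval in SAS was -0.15 to 0.26 for NFKB2, -0.28 to 0.12 for RELB and -0.54 to 0.55 for TNFAIP3, and that of BIRC3 was -1.47 to -0.16 (log2 fold change -0.82, unadjusted p = 0.0191, adjusted p = 1 by edgeR), against -1.13 to 0.08 with them. After irradiation, the interval for TNFAIP3 was -0.53 to 0.36 in SAS and -1.07 to 0.80 in Cal33. In the 6 libraries compared alone, with the replicate block, it was -0.05 to 0.25 for SAS GSK-J1 against sham. After irradiation it was -0.17 to -0.0025 in SAS and -0.28 to -0.04 in Cal33, not called by edgeR (adjusted p = 0.228 and 0.363). Among others without 0 in this fit were BIRC3 for SAS GSK-J1 against sham (-0.79 to -0.29) and, after irradiation, RELA in SAS (-0.26 to -0.10) and NFKBIA in Cal33 (0.12 to 0.35). The interaction, that is whether GSK-J1 changed the response to 4 Gy, was not called for any of the 10 genes in either line (0% of all genes; 209 genes in Cal33 and 399 in SAS at an unadjusted p under 0.05), and for TNFAIP3 it was -0.01 in Cal33 (95% interval -1.35 to 1.32) and -0.18 in SAS (-0.82 to 0.46), or -0.05 (-0.81 to 0.72) without the 2 libraries.

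**Figure D5:**
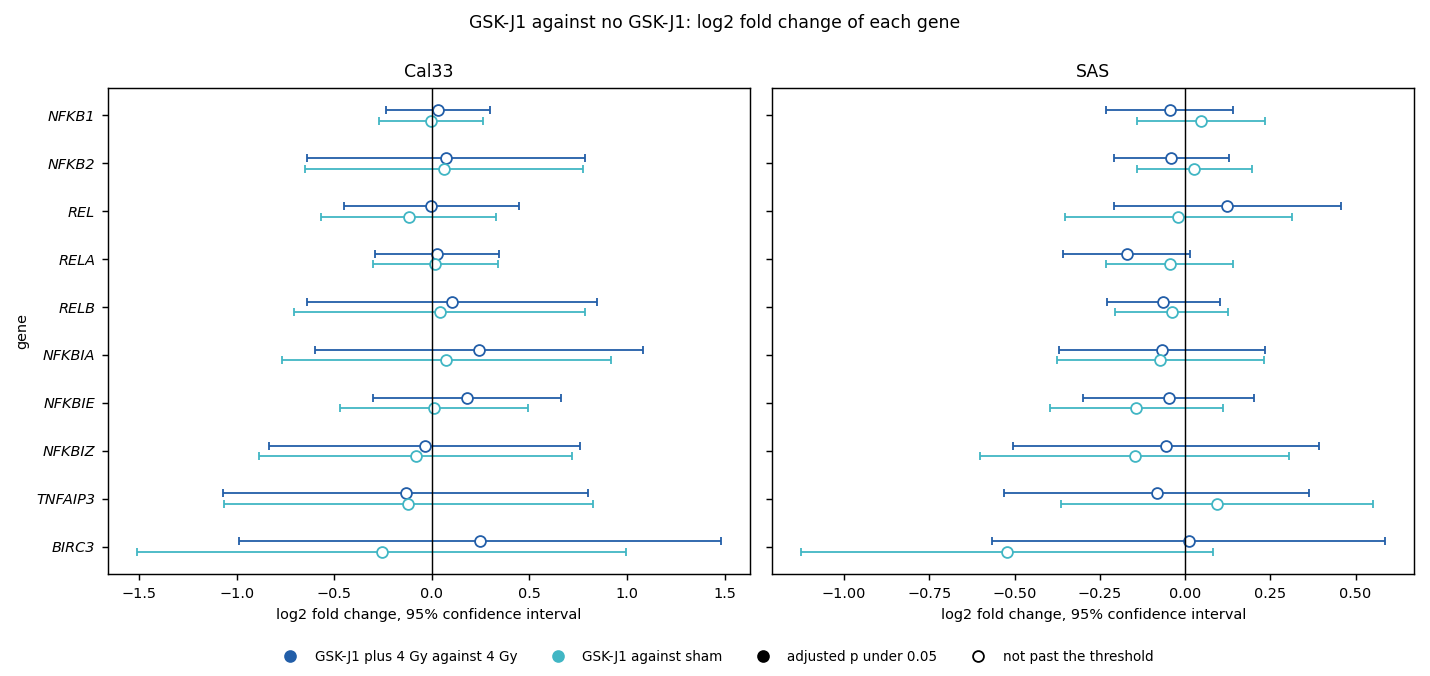
Log2 fold changes of the 10 genes for GSK-J1 plus 4 Gy against 4 Gy and for GSK-J1 against sham, in Cal33 and in SAS, with 95% intervals from the fit without a replicate block. Every interval includes 0, and the widest, for BIRC3 in Cal33, runs from -1.51 to 1.00 over sham.

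A fit of only the 6 libraries compared, with the replicate number as a block and 2 residual degrees of freedom, called 1 of the 10 genes in each of 3 comparisons, among 596 genes in all for SAS GSK-J1 against sham, and 1903 in SAS and 127 in Cal33 for GSK-J1 plus 4 Gy against 4 Gy. In SAS, BIRC3 was lower with GSK-J1 (2.59, 1.94 and 1.15 CPM) than in sham (3.65, 2.49 and 2.01 CPM), lower in each pair of replicates, with a log2 fold change of -0.54 ± 0.12 (SE, adjusted p = 0.0102) in this fit, where 1.83% of all genes were called lower. RELA in SAS had 153, 138 and 161 CPM after GSK-J1 plus 4 Gy, against 170.4, 169 and 169 CPM after 4 Gy, without overlap, which 3.73% of genes showed in this direction (-0.18 ± 0.04 SE, adjusted p = 0.00371, with 3.51% of all genes called lower). In Cal33, NFKBIA had 242, 125 and 99.4 CPM after GSK-J1 plus 4 Gy, against 206, 109 and 81.5 CPM after 4 Gy, higher in each pair (0.23 ± 0.06 SE, adjusted p = 0.0379, with 0.227% of all genes called higher). With the block over all 12 libraries of the line, the adjusted p of these 3 differences was 0.593 for BIRC3, 0.705 for RELA and 1 for NFKBIA. Without the 2 SAS libraries, this fit gave -0.72 (adjusted p = 0.807) for BIRC3 and -0.20 (0.979) for RELA.

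Without treatment, 5 of the 10 transcripts differed between the lines, a share near that of genes in general. In Cal33 sham against SAS sham, 54.5% of all 24597 genes tested were called in either direction. NFKBIZ differed most, with 49.4, 33.5 and 51.1 CPM in Cal33 and 10.9, 7.02 and 6.64 CPM in SAS (log2 fold change of Cal33 over SAS 2.45 ± 0.35 SE, adjusted p = 3.24e-06). NFKB1 was higher in Cal33 (95.6 ± 6.09 CPM) than in SAS (64.3 ± 4.87 CPM; SD, n = 3 each), and RELA was lower in Cal33 (90.5 ± 9.14 CPM) than in SAS (149.8 ± 5.99 CPM), with log2 fold changes of 0.57 ± 0.11 (SE, adjusted p = 0.00016) and -0.73 ± 0.13 (SE, adjusted p = 4.96e-05) by edgeR. NFKBIE (0.59, adjusted p = 0.0122) and BIRC3 (1.53, adjusted p = 0.0158) were also higher in Cal33. The NFKBIE call was lost without Cal33 sham replicate 1 or SAS sham replicate 3 (adjusted p = 0.0532 to 0.0689), and BIRC3 had a log2 fold change of 0.68 (adjusted p = 0.263) without Cal33 sham replicate 3 and lost its call without SAS sham replicate 3 (0.0667).

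The response to irradiation was not shown to differ between the lines for any of the 10 genes. The difference of the 4 Gy effects, Cal33 minus SAS, ran from -0.12 for NFKBIE to 0.87 ± 0.47 SE for NFKBIZ (adjusted p = 0.567), and 0.427% of all genes were called for it. For TNFAIP3 the difference was 0.49 ± 0.53 SE (adjusted p = 0.853). Under GSK-J1, the difference of the irradiation effects was likewise called for none of the 10, against 0.232% of all genes. The 6 genes called in SAS and the 1 called in Cal33 are therefore not a difference between the lines by this test.

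Across the 12 libraries of Cal33, log2 CPM of the 10 genes went up and down together. Without REL, the 36 pairs had Pearson correlations of 0.82 to 0.97 (median 0.92), and REL correlated with the other 9 at 0.43 to 0.77. In SAS, the 36 pairs ran from 0.03 to 0.98 (median 0.75), and REL correlated with the others at -0.50 to 0.26 (0.125 to 0.983 and -0.449 to 0.244 over the 10 libraries without Cal33 transcripts). These correlations describe libraries that share treatment and replicate number. In Cal33 replicate 1 held the highest value of all 10 genes in both irradiated groups and of 9 genes in the GSK-J1 group, while sham replicate 2 held the lowest of 9 genes. In SAS no replicate held the highest value of more than 5 genes in any group.

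Among the genes whose level followed TNFAIP3 most closely over the 12 Cal33 libraries, out of 13152 genes with a mean of at least 100 counts, were IL36G and AXL (Pearson r 0.99 each). In SAS, out of 12880 genes, the closest 3 were GPR176 (r 0.985), RLTPR (0.983) and YKT6 (0.983). In SAS too, NFKB2 was followed most closely by LINC00973 (0.991) and IL24 (0.99), RELB by MFSD2A (0.989), CSF2 (0.987) and HSD11B1 (0.986), and NFKBIE by USP43 (0.981), CD59 (0.972) and CORO1A (0.97). For BIRC3 they were CPT1A (0.978), ASPHD1 (0.961) and CTSC (0.958), and for NFKB1 they were SLC43A3 (0.985), PEA15 (0.983) and MRTO4 (0.978). Over the 10 SAS libraries without Cal33 transcripts, the values of these pairs ranged from 0.956 to 0.993.

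Other genes of the pathway were taken from 3 lists. Of the classical target genes, 13 of 32 tested were called higher after 4 Gy over sham in Cal33 and 13 of 33 in SAS, none lower, where 3.47% and 3.63% of all genes were called higher, with a median log2 fold change over the list of 2.57 in Cal33, also with genes at 0 counts set to their bound, and 0.96 in SAS, against 0.01 and -0.02 over all genes. In SAS the highest were CSF2, a growth factor of granulocytes and macrophages (log2 fold change 3.20 ± 0.21 SE, adjusted p = 2.43e-05), and the chemokines CCL5 (2.86 ± 0.66 SE, adjusted p = 0.0233) and CXCL8 (2.75 ± 0.48 SE, adjusted p = 0.00605). In Cal33 the interleukin IL6 stood at 3.93 ± 1.44 CPM after 4 Gy and 0.0546 ± 0.0655 CPM in sham (SD, n = 3 each; log2 fold change 6.24 ± 0.60 SE, adjusted p = 0.000339). TNF, the cytokine that activates the pathway, was at 0 counts in all 3 Cal33 sham libraries and at 0.0929 to 1.27 CPM after 4 Gy. The mean of TNF after 4 Gy, 0.526 CPM, was at least 42.5-fold higher when sham is set to 3 counts over the group (0.0124 CPM). This bound is for the group mean and not for each library. CSF2 of Cal33 was called as well, at 0.737 to 11.1 CPM after 4 Gy and at most 0.0409 CPM in sham. On the log2 scale, IL6 and CXCL10, an interferon-induced chemokine, had a larger 4 Gy effect in Cal33 than in SAS. The difference of the effects was 4.07 (edgeR adjusted p = 0.00599) for IL6 and 4.10 (0.0494) for CXCL10. These are differences of ratios and not of levels. The IL6 ratio of Cal33 starts from a sham level near 0, and untreated Cal33 had less IL6 than untreated SAS.

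With GSK-J1 present, the targets called after irradiation were 13 higher and 0 lower in Cal33 and 13 higher and 1 lower in SAS over sham, the lower one being the transcription factor IRF1 (-0.96), and 12 higher in Cal33 and 11 in SAS over GSK-J1. Of all genes, 2.91% were called higher in Cal33 and 3.87% in SAS over sham, where 3.98% were lower in SAS, and 3.04% and 2.43% were higher over GSK-J1. Without the 2 SAS libraries, the SAS counts were 10 higher and 0 lower over sham, with CCL5 and IRF1 among those no longer called, and 5 higher over GSK-J1. The highest called over sham were again TNF, CSF2 and IL6 in Cal33 and CSF2, CXCL8 and CCL5 in SAS, and over GSK-J1 they were TNF, CSF2 and IL6 in Cal33 and CXCL8 (2.83), CXCL1 (2.65) and CSF2 (2.58) in SAS. Of the other IkB proteins and negative regulators, 2 of 18 were higher after 4 Gy in Cal33, the deubiquitinase CYLD (0.81) and the inhibitor NFKBIB (0.55), and 3 of 17 in SAS, PDLIM2 (0.65), which targets RELA for degradation, NFKBIB (0.61) and the A20-binding TNIP1 (0.55). Of all genes, 3.47% were higher in Cal33 and 3.63% in SAS. Of the kinases and adaptors upstream, 1 of 24 was higher in Cal33, a share near that of all genes, IRAK1 (0.41), and 2 were lower in SAS, the receptors TLR3 (-1.03) and TNFRSF1A (-0.33), where 3.45% of all genes were lower, and of these TNFRSF1A was not called without the 2 SAS libraries. Under GSK-J1, the regulators called higher in Cal33 were CYLD and NFKBIB over sham, joined over GSK-J1 by TNIP3 (5.50), and in SAS they were PDLIM2 and NFKBIB over both. IRAK1 was called over both in Cal33. In SAS, the kinase CHUK, which encodes IkB kinase alpha, was higher over both (0.51 over sham and 0.46 over GSK-J1), and TLR3 and TNFRSF1A were lower over sham. Without the 2 SAS libraries, PDLIM2, NFKBIB, CHUK and TNFRSF1A were called over sham, and none of the regulators and upstream genes over GSK-J1.

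In the comparisons of GSK-J1 with its absence, no gene of the 3 lists was called by edgeR in either line. The smallest unadjusted p among the targets was that of IL6 (log2 fold change 0.84) for Cal33 GSK-J1 against sham, LCN2 (0.30) for Cal33 GSK-J1 plus 4 Gy against 4 Gy, BCL2L1 (0.15) for SAS GSK-J1 against sham and CSF2 (-0.37) for SAS GSK-J1 plus 4 Gy against 4 Gy, each with an adjusted p of 1. Among the regulators they were TNIP3 (-2.65), TRAF3 (0.11), CYLD (-0.12) and TNIP2 (-0.19), and upstream IKBKG (-0.13), TLR2 (0.16), MYD88 (-0.25) and IRAK4 (0.25), in the same order of comparisons. Between the untreated lines, where 27.2% of all genes were higher and 27.2% lower, the shares of the 3 lists called lay on both sides of the 54.5% of all genes. In Cal33 against SAS, 8 of 33 targets were higher and 12 lower, led by CCL5 (6.81 on the log2 scale), IL6 (-5.28) and LTB (-5.13). Of the regulators 4 of 18 were higher and 4 lower, led by TNIP3 (5.65), TRAF1 (2.18) and TAX1BP1 (0.91), and of the upstream genes 8 of 24 were higher and 8 lower, led by the receptors IL1R1 (4.95), CD40 (3.45) and TLR2 (3.26).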

How the data were processed

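Total RNA of Cal33 and SAS cells was isolated after 24 h and sequenced as 24 stranded libraries. Per the labels, the authors aligned reads with STAR 2.5.3a to the hs37d5 build, used SAMtools 1.6, and counted reads per gene with featureCounts of Subread 1.5.1, with and without regard to strand. The annotation release is not given in the sources used here. The deposited counts are raw, without filter or normalization, and the counts on the gene's strand were used. They held 94.4 to 95.2% of the stranded counts. The deposited TPM values, which the authors scaled per gene length and library, were used for levels between genes only. The exonic length that the deposited files give was used for RPKM as an alternative.

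Counts were analyzed in R 4.3.3 with edgeR 4.0.16 (TMM scaling, quasi-likelihood test without covariates), with the 12 libraries of each line fitted together, and all 24 for contrasts of the lines. Testing required a mean count of 1 per library (24351 genes in Cal33, 23416 in SAS, 24597 over both), and the threshold was a Benjamini-Hochberg adjusted p of 0.05. The standard error is the size of the log2 fold change divided by the square root of F. CPM in the text were scaled over all 24 libraries, fold changes within a line over its 12. Replicate numbers were taken to pair 2 groups where all 3 correlations of deviations from the group means exceeded 0.1 (lowest r across genes 0.249 in SAS and 0.175 among the Cal33 groups other than sham, and -0.522 with Cal33 sham, from shared numbers in the labels). All 10 members are described, and of other lists the called genes with the 3 largest changes, or without a call the gene with the smallest p, while IRF1 was named after its value was seen. The 3 genes most like a member by Pearson correlation were also named, except a gene each for TNFAIP3 in Cal33 and NFKB2 in SAS that is not reported here. The list names CXCL8 and OTULIN were matched as IL8 and FAM105B, and PECAM1 was not matched. Members and lists were chosen with earlier results of these data known. Alternatives were other thresholds, DESeq2 1.42.0, its size factors, other count filters, unstranded counts, the replicate block, the 6 libraries compared, leaving out each library, and leaving out the 2 SAS libraries with Cal33 transcripts, also with the block and for the other lists, correlations and levels (these chosen after the data were seen). The scripts were tested on simulated data.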

Additional observations from a re-analysis of the deposited data

How the results depend on the processing

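The 25 calls of single genes were repeated under 639 alternatives in all. The direction turned in 0, 588 kept the call and 51 lost it, which besides single libraries happened at an adjusted p under 0.01, in the 6 libraries compared alone, and without the 2 SAS libraries with Cal33 transcripts. Counts of called genes moved mainly in Cal33. The share of all genes called is not given beside the counts below, and only some of these shares are given above. Without that share, a moved count does not tell the genes described from genes in general. For Cal33 4 Gy against sham (1 called) the count was 3 at an adjusted p under 0.1 and with DESeq2, and 4 without a count filter. With the replicate block, whose numbers do not pair with Cal33 sham, it was 5, and 4 in the 6 libraries alone. For Cal33 GSK-J1 plus 4 Gy against sham (1) it was 4 at a threshold of 0.1, 0 at 0.01, 4 with DESeq2, 5 without a count filter, and with the replicate block 6, or 3 in the 6 libraries. For Cal33 GSK-J1 plus 4 Gy against GSK-J1 (1) it was 4 at a threshold of 0.1, 5 with DESeq2 and without a count filter, 2 in the 6 libraries alone, and with the replicate block 7, or 8 in the 6 libraries. For SAS GSK-J1 plus 4 Gy against GSK-J1 (5), the replicate block gave 8, also in the 6 libraries and without the 2 SAS libraries. For SAS GSK-J1 plus 4 Gy against sham (6), 3 were called at 0.01 and 3 without the 2 SAS libraries. The blocked fit of 6 libraries called 1 gene each for SAS GSK-J1 against sham, SAS GSK-J1 plus 4 Gy against 4 Gy and Cal33 GSK-J1 plus 4 Gy against 4 Gy, where 0 were called otherwise. Cal33 sham against SAS sham (5) had 3 at 0.01. The block changed the count by more than 1.5 times in no other comparison, and the causes were not tested.

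With single libraries left out, the counts ran from 1 to 3 for Cal33 4 Gy against sham, from 0 to 4 for Cal33 GSK-J1 plus 4 Gy against sham and against GSK-J1, from 4 to 6 for SAS 4 Gy against sham, from 3 to 6 for SAS GSK-J1 plus 4 Gy against sham, and from 3 to 5 for Cal33 sham against SAS sham, where SAS sham replicate 3 gave the 3. They stayed at 5 for SAS GSK-J1 plus 4 Gy against GSK-J1 and at 0 in all other comparisons. These counts are also given without the share of all genes, and do not tell the genes described from genes in general. The order of levels per length was the same by TPM and by RPKM. The lowest count of any of the 10 genes in a library was 86, and each group had 3 libraries.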
